A study of Mus musculus with 5 samples.

Results

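Interferon-stimulated genes are genes whose transcription rises when a cell senses interferon, and 49 of them were followed in CD4 single positive (CD4 SP) thymocytes of mice with and without the enzymes TET2 and TET3. They were listed by symbol as known targets of type I interferon and of interferon gamma. All 49 were found among the 55487 genes counted, and all 49 passed the filter on low counts, as did 13525 genes of the whole series. TET2 and TET3 oxidize 5-methylcytosine in DNA, and the comparison asks how their joint loss alters gene expression in CD4 SP cells. RNA of sorted cells was sequenced from 3 wild type (WT) mice and from 2 double knockout (*Tet2/3* DKO) mice, all of strain C57BL/6J and 21 to 30 days old, with 1 library per mouse. The knockout genotype is labelled Tet2-/-Tet3flx/flxCD4cre, so *Tet2* is lost in every cell of the mouse, whereas *Tet3* is deleted by a Cre that the *Cd4* promoter drives, in T cells from the CD4+CD8+ stage on. No agent was given to either group. The cells were CD4+, TCRb+ and HSAlow (HSA is CD24, lost as thymocytes mature), and were sorted as negative for CD8 and for the CD1d tetramer that binds iNKT cells.

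Type I interferons bind the receptor IFNAR, whose kinases JAK1 and TYK2 activate transcription factors of the STAT family. These join IRF9 to form ISGF3, a complex that binds the interferon-stimulated response element (ISRE) in the promoters of its target genes, whereas interferon gamma acts through STAT dimers at the gamma-activated site (GAS). In the thymus, interferon made by epithelial cells keeps many of these genes transcribed in maturing thymocytes without infection.

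RefSeq promoter windows, 250 bases before to 50 bases after a start site in build GRCm38.p6, were matched by symbol for 37 of the 49 genes. An ISRE, searched as the letters GAAANNGAAA on both strands with overlapping matches counted, stood in a window of 22 of these 37 genes (59.5%), against 3.99% of the 27025 genes with a window. A GAS, searched as TTCNNNGAA on both strands, stood in 10 of the 37 genes (27.0%), against 9.55% of all genes, and in 1 gene its letters overlapped with an ISRE. The 250 bases before the start site are shown for 2 genes that were higher in *Tet2/3* DKO cells and carry an ISRE (*Oas1a* and *Apobec3*), for a near-identical pair of genes (*Ifit3* and *Ifit3b*), for *Isg15*, which has 3 overlapping matches, and for *Irf1*, the member with the lowest fold change, whose window holds a GAS. They lie, in GRCm38.p6, for *Oas1a* at chr5:120907526-120907775 on the minus strand, *Apobec3* at chr15:79892158-79892407 on the plus strand, *Ifit3* at chr19:34583279-34583528 on the plus strand, *Ifit3b* at chr19:34607707-34607956 on the plus strand, *Isg15* at chr4:156200819-156201068 on the minus strand and *Irf1* at chr11:53769764-53770013 on the plus strand. Each is written from 5′ to 3′ on the strand of its gene, and the capitals mark ISRE letters (GAAANNGAAA, or TTTCNNTTTC where the match is on the other strand) in the first 5 and GAS letters in *Irf1*.
Oas1a: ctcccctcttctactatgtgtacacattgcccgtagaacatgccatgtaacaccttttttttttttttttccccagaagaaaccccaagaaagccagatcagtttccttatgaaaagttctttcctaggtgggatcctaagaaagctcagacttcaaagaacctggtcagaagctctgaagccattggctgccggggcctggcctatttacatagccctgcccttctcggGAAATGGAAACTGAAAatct
Apobec3: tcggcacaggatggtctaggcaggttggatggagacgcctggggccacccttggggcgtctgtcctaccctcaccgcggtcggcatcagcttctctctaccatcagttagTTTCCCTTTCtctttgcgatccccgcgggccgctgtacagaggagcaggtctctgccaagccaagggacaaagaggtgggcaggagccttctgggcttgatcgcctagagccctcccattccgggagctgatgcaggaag
Ifit3: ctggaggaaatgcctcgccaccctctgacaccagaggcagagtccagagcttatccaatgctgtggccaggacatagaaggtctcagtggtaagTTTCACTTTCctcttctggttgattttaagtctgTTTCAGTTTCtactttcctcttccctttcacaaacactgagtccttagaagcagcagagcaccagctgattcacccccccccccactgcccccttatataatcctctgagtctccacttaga
Ifit3b: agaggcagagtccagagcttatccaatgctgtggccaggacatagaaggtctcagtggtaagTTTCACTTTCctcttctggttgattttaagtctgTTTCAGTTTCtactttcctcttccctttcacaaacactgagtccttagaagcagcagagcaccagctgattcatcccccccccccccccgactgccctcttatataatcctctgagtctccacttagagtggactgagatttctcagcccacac
Isg15: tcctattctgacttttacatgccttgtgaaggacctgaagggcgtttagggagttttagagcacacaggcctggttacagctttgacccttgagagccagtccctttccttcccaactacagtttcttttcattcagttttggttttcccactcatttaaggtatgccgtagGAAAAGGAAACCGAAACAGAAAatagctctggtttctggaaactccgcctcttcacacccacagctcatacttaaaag
Irf1: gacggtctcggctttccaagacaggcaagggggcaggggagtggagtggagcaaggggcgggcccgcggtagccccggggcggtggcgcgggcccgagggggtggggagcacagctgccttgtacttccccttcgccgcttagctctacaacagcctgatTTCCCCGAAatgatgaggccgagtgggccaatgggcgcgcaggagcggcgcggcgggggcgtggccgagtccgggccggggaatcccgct
A match of these letters is a description of the sequence and does not show binding. The genes *Usp18*, *Oas2*, *Mx1*, *Ifi27*, *Parp14*, *Rtp4*, *Dhx58*, *Ifi204*, *Zbp1*, *Iigp1*, *Ly6a* and *Ly6e* had no entry. The median log2 fold change (*Tet2/3* DKO over WT) was 0.42 in the 22 genes with an ISRE, and 0.39 in the 15 genes without one. The corresponding medians were 0.34 for the 10 genes with a GAS and 0.42 for the 27 without.

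Between 17607089 and 27267031 reads were counted on genes per library. Levels are given as CPM, the counts scaled to libraries of 1000000 reads. The genes of the labelled cell type were abundant in every library (*Cd4*, *Cd3e*, *Cd3g*, *Trac*, *Trbc1* and *Trbc2* together 8429.7 to 9743 CPM). Among them *Cd4* itself was lower in *Tet2/3* DKO cells, with 635, 752 and 572 CPM in WT and 389 and 433 in the knockouts (log2 fold change -0.67, adjusted p = 0.00950, at most 0.0419 over the alternatives). *Tet3* fell by 1.50 on the log2 scale (adjusted p = 0.00121, at most 0.0154 over the alternatives), while *Tet2* had a log2 fold change of 0.46 (adjusted p = 0.135), and counts per gene cannot show the loss of single *Tet2* exons. A pair of libraries went against their labels for sex. WT replicate 1 is labelled female but had 0 *Xist* counts and 6821 counts on 4 Y-linked genes, and *Tet2/3* DKO replicate 1 is labelled male but had 744 *Xist* counts and 7 on those Y-linked genes. The methods give all mice as male, which the reads of *Tet2/3* DKO replicate 1 go against as well. *Tet2/3* DKO replicate 1 also had the largest share of reads on no annotated feature (5.70%, with 3.51% to 3.72% in the rest). The part of sex and of that share in the results was not tested, and the counts of members that rose are also given without these libraries.

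In WT CD4 SP cells most members were transcribed well above the typical gene. Their median level, as CPM per kilobase of exon, was 49.9, against 4.04 for the 13510 tested genes with an exon length, and 45 of 49 members exceeded that median. *Slfn2*, a Schlafen gene required for T cell quiescence, was the highest member, with 860.2, 749.9 and 886 CPM per kilobase in WT replicates 1, 2 and 3. *Ly6e*, a GPI-anchored surface protein, had 573, 546 and 477, and *Slfn1*, another Schlafen gene, had 539, 452 and 477. The ranges of *Ly6e* and *Slfn1* overlapped, so their order is not beyond the spread between mice, whereas *Slfn2* exceeded both in every library. The immunity-related GTPase gene *Igtp* followed with 346, 296 and 329 CPM per kilobase, and the receptor transporter gene *Rtp4* with 284, 231 and 233. At the low end were *Ifi204*, a DNA-binding PYHIN protein, at 0.412 ± 0.113 CPM per kilobase (SD, n = 3), and *Mx1*, a dynamin-like GTPase that blocks virus replication and is defective in C57BL/6 mice, at 2.66 ± 0.962 (SD, n = 3).

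**Figure D1:**
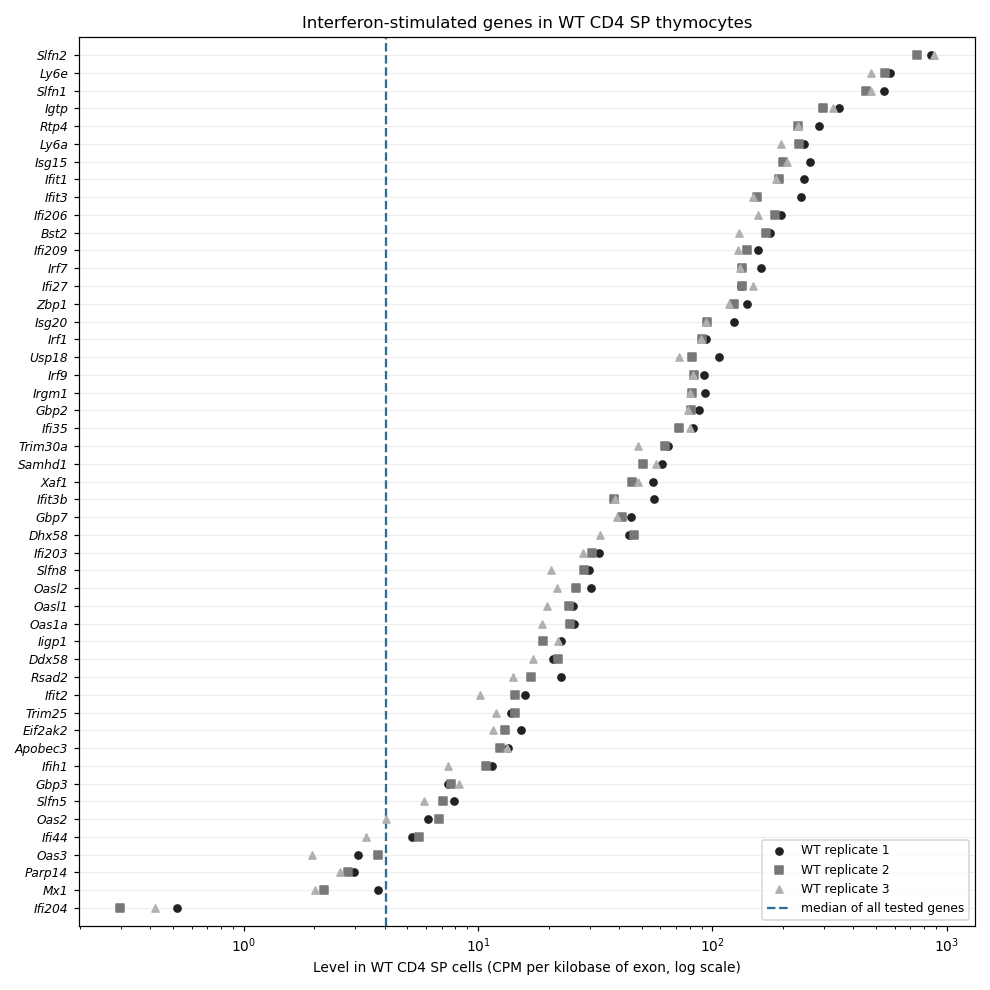
Level of each of the 49 members in the 3 WT libraries, in CPM per kilobase of exon on a log scale, with the genes ordered by their mean. The dashed line is the median of the tested genes (4.04), and *Oas3*, *Parp14*, *Mx1* and *Ifi204* had a mean below it.

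The members were shifted upward in *Tet2/3* DKO cells as a group, in a list chosen with earlier results of these data known. The shares that follow therefore describe the list and are not a test of it. The log2 fold change was above 0 in 44 of 49 members (89.8%, against 51.1% of all tested genes), with a median of 0.41, against 0.0076 for all tested genes. In the 64 tested interferon-stimulated genes outside the list the median was 0.16, and 46 were above 0. In edgeR's quasi-likelihood fit, with p-values adjusted over all 13525 genes, 5 members rose at a threshold of 0.01 (2.42% of all tested genes did) and 0 fell (1.5% did). These were *Ly6a*, *Mx1*, *Apobec3*, *Oas1a* and *Ifi204*. At an adjusted p of 0.05, 11 members rose (5.19% of all tested genes did) and 0 fell (3.48% did). With DESeq2 at 0.01 also 11 rose (3.92% did) and 0 fell (2.99% did). The 11 of DESeq2 were those 5 and *Irf7*, *Isg20*, *Ifi209*, *Gbp7*, *Iigp1* and *Slfn1*. From here on, rose, fell and passed refer to the edgeR fit at 0.01 unless another fit or threshold is named. At an unadjusted p of 0.05, 31 of 49 members passed, against 23% of all tested genes. Both *Tet2/3* DKO libraries exceeded every WT library in 25 members (51.0%, against 19.6% of all tested genes), lay below every WT library in 4 (8.16%, against 19.5%) and overlapped with WT in 20. The change was under 0.5 in size on the log2 scale in 32 members (65.3%, against 76.9% of all tested genes). It was at least 1 in size in 5 of the 49 members, and in 1428 of the 13525 tested genes. In bulk RNA, more cells with these transcripts and more transcripts in each cell cannot be told apart.

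The mean log2 CPM over the 49 members was 7.37 for WT replicate 1, 7.20 for WT replicate 2 and 7.05 for WT replicate 3. It was 7.79 for *Tet2/3* DKO replicate 1 and 7.48 for replicate 2. Both *Tet2/3* DKO libraries were above every WT library, but *Tet2/3* DKO replicate 2 exceeded WT replicate 1 by less than the WT libraries differed among themselves. The difference of the means was 0.43, the SD of the WT libraries was 0.16, and the *Tet2/3* DKO libraries were 0.31 apart. The libraries of each genotype also differed in a common direction. *Tet2/3* DKO replicate 1 exceeded replicate 2 in 40 of 49 members (81.6%, against 50.2% of all tested genes), and WT replicate 1 was the highest of the WT libraries in 40 members (81.6%, against 28.8%). *Tet2/3* DKO replicate 1 was above every WT library in 43 members and replicate 2 in 25, against 4898 and 4573 of the 13525 tested genes.

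Calls depended on which mice entered the fit. Without *Tet2/3* DKO replicate 1, 6 members rose (6.57% of all tested genes did), namely those 5 and *Gbp3*, 38 of 49 had a log2 fold change above 0 and the median was 0.17. Without replicate 2, 24 members rose (4.77% of all tested genes did), *Irf1* fell, 44 were above 0 and the median was 0.54. In both of these fits the remaining *Tet2/3* DKO library was assumed to vary as the WT libraries do. Without WT replicate 1, *Ly6a* and *Mx1*, 2 members, rose (0.783% of all tested genes did), and without WT replicate 2 or 3 only *Ly6a*, 1 member, rose (0.523% and 0.587% did), with 42 to 44 members above 0 and medians of 0.32 to 0.48. With the replicate number as a block, 3 members rose (1.72% of all tested genes did), namely *Ly6a*, *Ifit3* and *Irf7*.

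**Figure D2:**
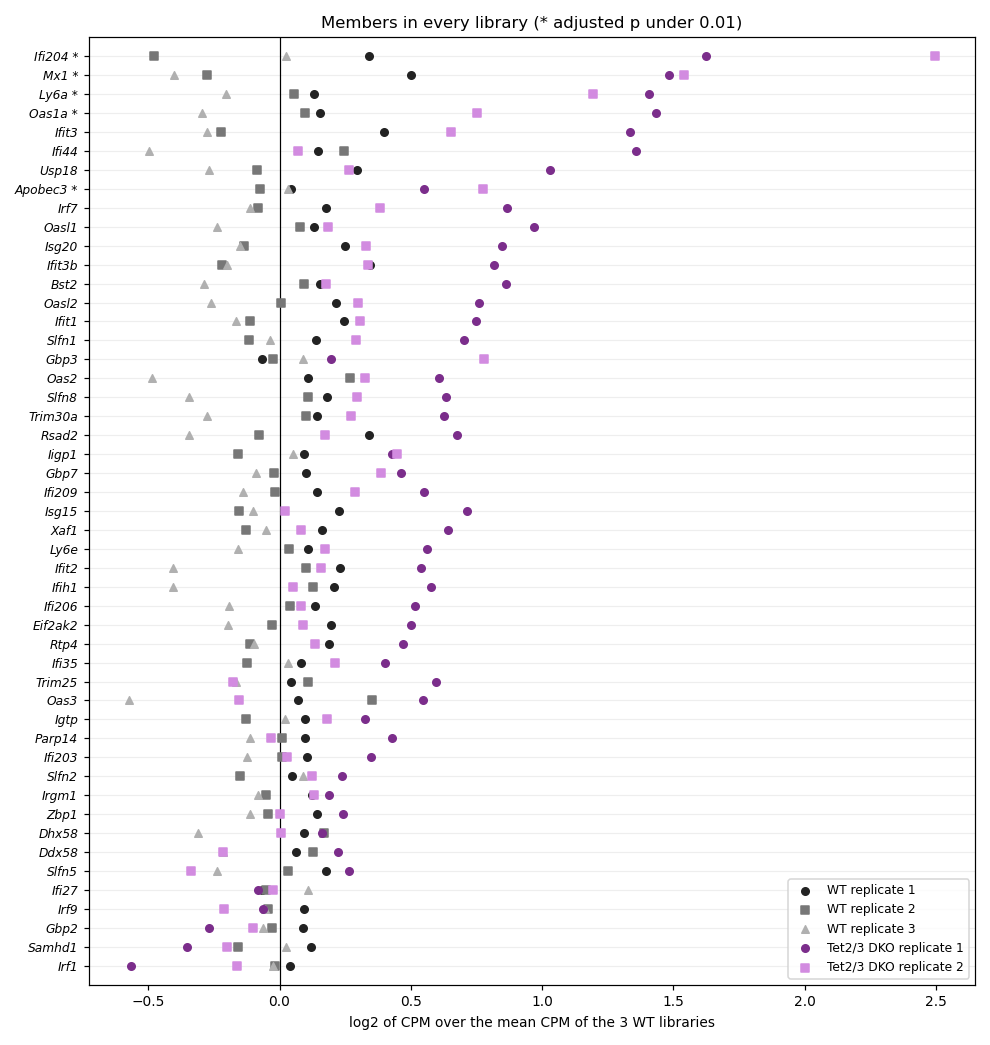
Each member in every library, as the log2 of its CPM over the mean CPM of the 3 WT libraries, ordered by fitted log2 fold change, with an asterisk on the 5 genes at an adjusted p under 0.01. *Tet2/3* DKO replicate 1 (dark purple) lies to the right of replicate 2 in 40 of 49 genes, and *Irf1* stands at the lower end.

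The transcription factors among the members did not share a direction. *Irf7*, which drives interferon alpha genes and is itself induced by ISGF3, had 607, 507 and 497 CPM in WT, against 979 and 700.1 in *Tet2/3* DKO libraries. Both *Tet2/3* DKO values were above every WT value, and the log2 fold change of 0.65 (standard error 0.14) missed the threshold (adjusted p = 0.0232). *Irf9*, the DNA-binding subunit of ISGF3, had 495, 449.7 and 446 CPM in WT, against 444 and 400.3 in *Tet2/3* DKO libraries. Its log2 fold change of -0.14 did not pass (adjusted p = 0.425), although both *Tet2/3* DKO values were the lowest. *Irf1*, a target and mediator of interferon gamma signalling, had 372, 358 and 355 CPM in WT, against 244 and 323 in *Tet2/3* DKO libraries, which lay below every WT library. Its log2 fold change of -0.35 (standard error 0.12) was the lowest of the members and did not pass (adjusted p = 0.108). Without *Tet2/3* DKO replicate 2 it was -0.58 (adjusted p = 0.00110), and without replicate 1 it was -0.16 (adjusted p = 0.370). Reads that *Irf1* shares with overlapping genes were left out of its counts, and adding the columns for each strand gave 1.39 times as many reads and a log2 fold change of -0.36.

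The IFIT genes encode antiviral proteins, some of which bind viral RNA. All 4 had fold changes above 0 (51.1% of all tested genes did) and 0 of 4 passed the threshold (2.42% of all tested genes rose). *Ifit3* had 416, 271 and 261 CPM in WT, against 798 and 496 in *Tet2/3* DKO libraries. Its *Tet2/3* DKO values were above every WT value, the lower of them by less than the spread of WT, and its log2 fold change was 1.03 ± 0.23 (SE, adjusted p = 0.0229). *Ifit1* had a log2 fold change of 0.55, *Ifit3b* 0.60 and *Ifit2* 0.37, with adjusted p-values from 0.0608 to 0.289. Of the stretches of 50 bases in *Ifit3* transcripts, 51.2% also occur in *Ifit3b*, whose promoter shown above is nearly the same, and reads matching both genes were not counted.

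*Isg15*, the ubiquitin-like protein attached to other proteins in the antiviral response, had 197, 152 and 157 CPM in WT, against 277 and 171 in *Tet2/3* DKO libraries. *Usp18*, which removes ISG15 and dampens signalling at the interferon receptor, had 299, 229 and 202 CPM in WT, against 496 and 292 in *Tet2/3* DKO libraries. In both genes *Tet2/3* DKO replicate 1 was the highest of all libraries and replicate 2 lay within the WT range. Their log2 fold changes of 0.41 and 0.70 did not pass (adjusted p = 0.235 and 0.0848).

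The OAS family senses double-stranded RNA and activates RNase L through short oligoadenylates, apart from members without enzyme activity. *Oas1a* (chromosome 5, 120896256 to 120907521, minus strand, build mm10) had 48.3, 46.5 and 35.4 CPM in WT, against 117 and 73.1 in *Tet2/3* DKO libraries. Both *Tet2/3* DKO libraries exceeded every WT library, and *Oas1a* rose 2.20-fold (log2 fold change 1.14, standard error 0.20, adjusted p = 0.00776). Leaving out any 1 WT library brought its adjusted p to between 0.0291 and 0.0512. Its counts are uncertain, since 57.6% of its stretches of 50 bases occur in other genes, mostly *Oas1g*. The other 4 genes of the family, *Oas2*, *Oas3*, *Oasl1* and *Oasl2*, had log2 fold changes from 0.26 to 0.63 and did not pass.

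Of 12 other antiviral effectors, 2 rose (2.42% of all tested genes did) and 0 fell (1.5% did). *Mx1* (chromosome 16, 97447035 to 97462907, minus strand) had 14.2, 8.30 and 7.62 CPM in WT, against 28.1 and 29.2 in *Tet2/3* DKO libraries. The *Tet2/3* DKO values were near each other and above every WT value, and *Mx1* rose 2.85-fold (log2 fold change 1.51, standard error 0.24, adjusted p = 0.00448). Its adjusted p was 0.0435 without WT replicate 2 and 0.0334 without WT replicate 3. *Apobec3* (chromosome 15, 79891659 to 79915906, plus strand), a cytidine deaminase that restricts retroviruses, had 127, 117 and 126 CPM in WT, against 180.2 and 210.5 in *Tet2/3* DKO libraries. The WT values of *Apobec3* were close together and the *Tet2/3* DKO values lay clear of them. *Apobec3* rose 1.58-fold (log2 fold change 0.66, standard error 0.10, adjusted p = 0.00318), and its adjusted p was 0.0248 to 0.0290 with any 1 WT library left out.

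Among the effectors that did not pass, *Samhd1*, which hydrolyses deoxynucleotides, had 559.9, 462 and 524 CPM in WT, against 403 and 448 in *Tet2/3* DKO libraries. Both *Tet2/3* DKO values were below every WT value (log2 fold change -0.28, adjusted p = 0.142). *Isg20*, an exonuclease of RNA, *Bst2*, which tethers budding virions, and *Ifi35* had both *Tet2/3* DKO libraries above every WT library, with log2 fold changes of 0.61, 0.56 and 0.31. *Ifi44* differed by the largest ratio between the *Tet2/3* DKO mice of all members, with 73.9 CPM in replicate 1 and 30.3 in replicate 2, the latter within the WT values of 32.0, 34.2 and 20.4. *Rsad2* (viperin), the kinase gene *Eif2ak2*, *Parp14*, *Rtp4* and *Ifi27* overlapped between the genotypes, with log2 fold changes from -0.05 to 0.45.

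The cytosolic RNA sensors *Ifih1* (MDA5), *Ddx58* (RIG-I) and *Dhx58* (LGP2) overlapped between the genotypes in every case, with log2 fold changes of 0.34, 0.02 and 0.09. *Ddx58* had 147, 154 and 122 CPM in WT, against 165 and 121 in *Tet2/3* DKO libraries. Replicate 1 of the knockouts was above all WT libraries, and replicate 2 (121.4 CPM) was level with WT replicate 3 (121.6 CPM). The 95% interval of its log2 fold change ran from -0.31 to 0.35.

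Among the PYHIN genes, which bind DNA or act in transcription, *Ifi204* (chromosome 1, 173747293 to 173766943, minus strand) had the largest fold change of the members and the lowest WT level per kilobase. It had 1.86, 1.05 and 1.49 CPM in WT, against 4.53 and 8.28 in *Tet2/3* DKO libraries, from 48, 25 and 41 reads in WT. Every *Tet2/3* DKO value was above every WT value, and *Ifi204* rose 4.25-fold (log2 fold change 2.09, standard error 0.36, adjusted p = 0.00750). Its adjusted p was 0.0283 to 0.0585 with any 1 WT library left out, and 20.0% of its stretches of 50 bases occur in other genes, mostly *Ifi211*. *Ifi209* had 557, 499.8 and 458 CPM in WT, against 739 and 617 in *Tet2/3* DKO libraries, a separation of the genotypes that did not pass (log2 fold change 0.42, adjusted p = 0.0456). Of the stretches of 50 bases in *Ifi209*, 33.7% occur in other genes, mostly *Ifi214*, so its counts are uncertain too. *Ifi203* and *Ifi206* overlapped, with log2 fold changes of 0.20 and 0.32, and share 12.4% and 25.6% of their stretches with other genes. The regulators of cell death *Zbp1*, a sensor of Z-form nucleic acid, and *Xaf1* overlapped as well, at 0.13 and 0.39.

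The GBP and IRG GTPases act on the vacuoles of intracellular pathogens and respond strongly to interferon gamma. In 5 of 6 both *Tet2/3* DKO libraries were above every WT library (19.6% of all tested genes were). In the edgeR fit 0 of 6 passed (2.42% of all tested genes rose and 1.5% fell). With DESeq2 *Gbp7* and *Iigp1* rose (adjusted p = 0.000376 and 0.00216), where 3.92% of all tested genes did. *Gbp7* had 251, 231 and 221 CPM in WT, against 323 and 307 in *Tet2/3* DKO libraries, with close values inside each genotype (log2 fold change 0.43, standard error 0.09, adjusted p = 0.0174). *Iigp1* had 131, 110.3 and 128 CPM in WT, against 166 and 168 in *Tet2/3* DKO libraries (log2 fold change 0.44, adjusted p = 0.0263). *Gbp3*, *Igtp* and *Irgm1* had log2 fold changes of 0.51, 0.25 and 0.16. *Gbp2* was the exception, with 220.2, 203 and 198 CPM in WT, against 172 and 193 in *Tet2/3* DKO libraries, lower in both (log2 fold change -0.18, adjusted p = 0.290). *Gbp3* was among the few members higher in *Tet2/3* DKO replicate 2 (43.9 CPM) than in replicate 1 (29.3), and it passed when replicate 1 was left out (adjusted p = 0.000740).

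The smallest adjusted p of the members was that of *Ly6a*, which encodes the surface protein Sca-1 (chromosome 15, 74994877 to 74998031, minus strand). It had 297, 282 and 236 CPM in WT, against 719.9 and 620.1 in *Tet2/3* DKO libraries. The genotypes were far apart relative to the spread within each, and *Ly6a* rose 2.47-fold (log2 fold change 1.30, standard error 0.11, adjusted p = 0.000203). Of the 5 members that rose, *Ly6a* was the only one below an adjusted p of 0.01 whichever library was left out (its highest value was 0.00565). Its log2 fold change ran from 1.19 to 1.39 in those fits. Of its stretches of 50 bases, 19.0% occur in other genes, mostly *Ly6c1*. *Ly6e* had 2169, 2067 and 1805 CPM in WT, against 2973 and 2272 in *Tet2/3* DKO libraries, higher in both but not past the threshold (log2 fold change 0.38, adjusted p = 0.10).

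Of the Schlafen genes, *Slfn1* had 1004, 842 and 889 CPM in WT, against 1485 and 1116 in *Tet2/3* DKO libraries, above WT in both (log2 fold change 0.51, adjusted p = 0.0373). *Slfn2* and *Slfn8* were also higher in both *Tet2/3* DKO libraries, at log2 fold changes of 0.18 and 0.48 that did not pass, and *Slfn5* overlapped, at 0.0015. Of the TRIM genes, which encode ubiquitin ligases, *Trim30a* was higher in both libraries (0.46, adjusted p = 0.0886) and *Trim25*, an activator of RIG-I, overlapped (0.27).

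**Figure D3:**
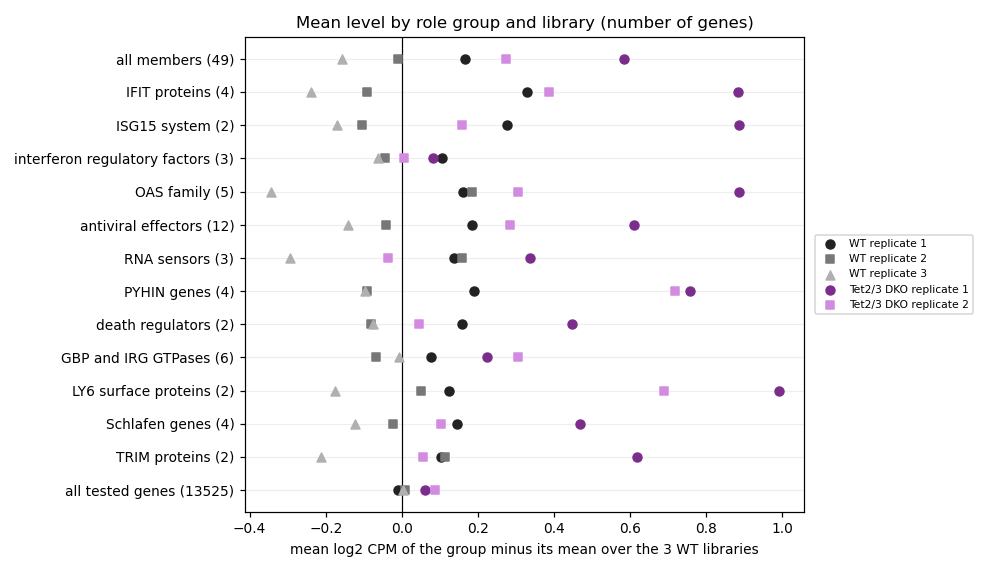
Mean log2 CPM of each role group in each library, minus the mean of the 3 WT libraries, with the number of genes in brackets. The means of the LY6 and PYHIN genes differed most between the genotypes (0.84 and 0.74), with *Ifi204* at 2.09 and the other 3 PYHIN genes at 0.20 to 0.42 (median of the 4 genes 0.37), those of the interferon regulatory factors differed least (0.04, from *Irf7* at 0.65, *Irf9* at -0.14 and *Irf1* at -0.35), and the mean over all tested genes differed by 0.07.

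**Figure D4:**
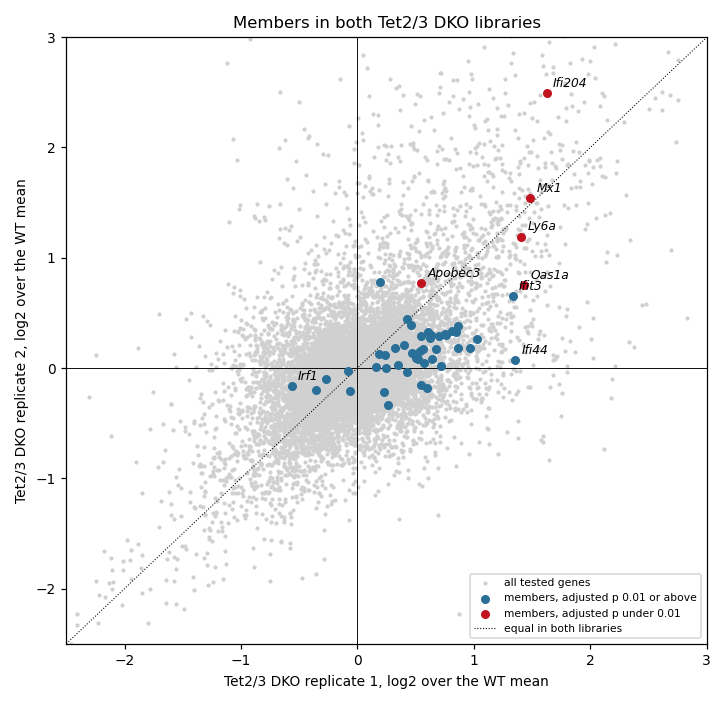
Each gene's log2 CPM over the WT mean in *Tet2/3* DKO replicate 1 (x axis) and replicate 2 (y axis), for the members and, in grey, for all tested genes, of which 140 lie outside the axes. Of the 49 members 40 lie below the dotted line of equal values, and *Ifi204*, *Apobec3* and *Mx1* lie above it.

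The genes that carry the interferon signal did not move as 1 group. Of 10 ligand genes, 8 (*Ifnb1*, *Ifna1*, *Ifna2*, *Ifna4*, *Ifna5*, *Ifne*, *Ifnl2* and *Ifnl3*) had 0 counts in every library, and *Ifnk* had at most 2. By counting error alone a 0 allows up to 3 reads in each library. Reads on several loci were not counted, and the sequence these ligand genes share with others was not examined, so the true number could be higher. *Ifng*, the gene of interferon gamma, had 18, 6 and 27 reads in WT, against 11 and 55 in *Tet2/3* DKO libraries, which overlapped (log2 fold change 1.36, adjusted p = 0.307). The log2 fold change of *Ifng* ran from -0.35 to 2.21 over the fits without 1 library, so its direction depended on the mice included. Of the 5 tested receptor genes, 1 rose and 0 fell, beside 2.42% and 1.5% of all tested genes, shares that also apply to the pathway counts that follow. *Ifngr1*, the ligand-binding chain of the interferon gamma receptor, had 292, 255 and 271 CPM in WT, against 510.2 and 510.0 in *Tet2/3* DKO libraries. Both *Tet2/3* DKO values were above every WT value, a 1.87-fold rise (log2 fold change 0.90, standard error 0.09, adjusted p = 0.000363). *Ifnar1*, a chain of the type I receptor, was lower in both *Tet2/3* DKO libraries (-0.45). It did not pass in the edgeR fit (adjusted p = 0.0168), but fell with DESeq2 (adjusted p = 0.000193). *Ifnar2*, *Ifngr2* and *Il10rb* had log2 fold changes between -0.24 and 0.20.

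Of 3 receptor kinases and 2 STAT genes 0 passed in the edgeR fit. *Jak2*, which serves the interferon gamma receptor, had a log2 fold change of 0.55 (adjusted p = 0.0256, but 0.00321 with DESeq2). *Jak1* was at -0.18 and *Tyk2* at -0.11. *Stat2* and *Stat3* were at -0.33 and -0.11, and the *Tet2/3* DKO values of *Stat2* were below every WT value. Of 8 other IRF factors and binding partners 0 passed in the edgeR fit, with log2 fold changes from -0.61 (*Irf2bpl*) to 1.50 (*Irf5*). With DESeq2 *Irf5* rose (adjusted p = 0.00372) and *Irf2bpl* fell (adjusted p = 0.000627), where 3.92% and 2.99% of all tested genes did. Of 8 tested inhibitors of the pathway, 1 rose (2.42% of all tested genes did). *Socs3*, which inhibits JAK kinases bound to cytokine receptors, had 415, 448 and 496 reads in WT, against 745 and 998 in *Tet2/3* DKO libraries (log2 fold change 1.36, adjusted p = 0.00233, at most 0.0255 over the alternatives). *Socs1*, which acts at the interferon receptors, was at 0.66 (adjusted p = 0.0354, but 0.00420 with DESeq2). Of 10 tested genes of nucleic acid sensing upstream of interferon, 0 passed.

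**Figure D5:**
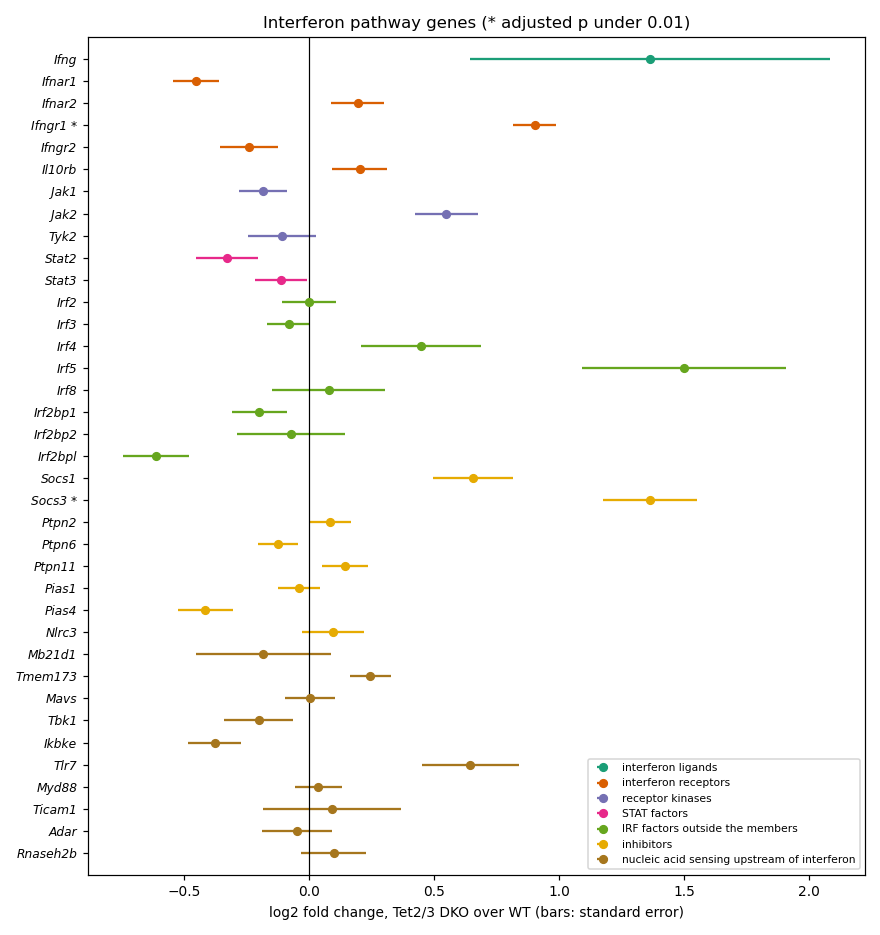
Fitted log2 fold changes of the tested ligand, receptor, kinase, STAT, IRF, inhibitor and sensing genes, with standard errors as bars and an asterisk at an adjusted p under 0.01. *Ifngr1* and *Socs3* lie to the right at 0.90 and 1.36, and *Stat2* and *Stat3* lie left of 0.

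Another 71 interferon-stimulated genes outside the 49 were read from the same fit. Of 64 tested, 7 rose and 1 fell, where 2.42% and 1.5% of all tested genes did. Their median log2 fold change was 0.16, and 46 were above 0, beside 0.0076 and 51.1% for all tested genes. *Ifi208*, a PYHIN gene, rose by the most among those 7, with 4588, 3957 and 4021 reads in WT, against 14761 and 9821 in *Tet2/3* DKO libraries (log2 fold change 1.94, adjusted p = 3.09e-05). The others that rose were *Epsti1* (1.56), *Ly6c2* (1.32), *Phf11a* (1.14), *Ly6c1* (0.88), and the GTPases *Tgtp2* (0.74) and *Gbp9* (0.59). The highest adjusted p over the alternatives was 0.00208 for *Ifi208* and 0.00220 for *Epsti1*, but 0.0203 to 0.0504 for the other 5, so that their calls were lost under some alternative. *Ifi30*, a thiol reductase of antigen processing, fell by 1.12 on the log2 scale (adjusted p = 0.00210, at most 0.0228 over the alternatives). *Ifi208* shares 11.1% of the stretches of 50 bases of the member *Ifi206*.

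Markers of other cells also differed between the genotypes. The 4 NK cell markers (*Ncr1*, *Klrb1c*, *Klre1* and *Eomes*) summed to 3.88 to 4.66 CPM in WT and to 90.3 and 115 in *Tet2/3* DKO libraries, and 3 of 4 rose (2.42% of all tested genes did). *Eomes*, a factor that T cells can also express, made up most of the knockout sums, with 81.2 and 92.8 CPM. *Ncr1* and *Klrb1c* rose as well, with 1, 0 and 0 reads in WT, against 31 and 40 in *Tet2/3* DKO libraries for *Ncr1*, and their highest adjusted p over the alternatives was 0.0153 and 0.0497. *Zbtb16*, the factor of iNKT cells, rose with a log2 fold change of 3.85, to 12.0 and 14.2 CPM from 0.548 to 1.24 in WT. The 6 myeloid markers summed to 8.49 to 15.0 CPM in WT, against 25.3 and 54.7 in *Tet2/3* DKO libraries, and 0 of 5 tested passed (2.42% of all tested genes rose and 1.5% fell). Most of this sum was *Lyz2*, with 10.8, 10.4 and 5.83 CPM in WT, against 18.6 and 42.5 in *Tet2/3* DKO libraries. Of the 6 myeloid markers, 5 lay above every WT library (19.6% of all tested genes did) and *Itgam* overlapped. The 6 markers of plasmacytoid dendritic cells, which make type I interferon, had 26.9 to 33.5 CPM in WT, against 22.6 and 33.5 in *Tet2/3* DKO libraries. Of these 6, *Siglech* (8 and 5 reads) and *Cox6a2* (1 read in each) were seen in the knockouts and at 0 in every WT library, *Klk1* had 1 read in WT and 16 in 1 knockout, *Tcf4* was lower in both knockouts without passing (log2 fold change -1.02, adjusted p = 0.0372), and *Irf8* and *Ly6d* overlapped (0.08 and -0.01). B cell markers summed to 5.61 to 6.96 CPM in WT, against 9.11 and 8.62 in *Tet2/3* DKO libraries, and *Pax5* was at 0 in 3 of the 5 libraries. In the same order, the sums were 2.22 to 2.99 then 2.57 and 3.80 CPM for conventional dendritic cells, 12.8 to 17.6 then 18.5 and 15.5 for gamma-delta T cells (2 of 3 markers matched) and 9.75 to 11.4 then 10.5 and 33.8 for thymic epithelium. Single markers of these lists differed in direction, with 1.47 for *Xcr1* and -1.64 for *Flt3* of dendritic cells, and -2.12 for *Sox13* and 0.33 for *Trdc* of gamma-delta T cells (log2 fold changes, none past the threshold). In the epithelial sum nearly all was *Epcam* (10.4 and 33.8 CPM in the knockouts), whereas *Psmb11* had 39, 22 and 18 reads in WT, against 1 and 0 in *Tet2/3* DKO libraries (adjusted p = 0.0189) and *Foxn1* had 0, 3 and 0 reads in WT, against 0 and 0 in *Tet2/3* DKO libraries. Erythroid markers summed to at most 0.336 CPM. Of the markers of late maturation and egress, a stage at which interferon response genes change in the thymus, *S1pr1* and *Ccr7* fell (log2 fold changes -0.64 and -0.65, with adjusted p of at most 0.0336 and 0.0180 over the alternatives) and *H2-Q7* rose (1.32). The log2 fold change was below 0 in 5 of these 6 markers (median -0.46), with *Klf2* at -0.64 (adjusted p = 0.0127) and *Il7r* at -0.29 also below every WT library. Of the markers outside the sort gate, *Cd8b1* fell by 1.29 on the log2 scale, and *Cd24a* and *Cd8a* did not pass. The part of these cells and stages in the values of the interferon-stimulated genes was not tested.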

How the data were processed

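RNA of sorted cells was amplified with SMART-seq chemistry and sequenced. Per the labels and the methods, the authors trimmed reads with fastp 0.21.0, aligned them with STAR 2.7.5a to mm10 and deposited raw counts per gene and library, without pooling or normalization. Reads on several loci or on overlapping genes were not counted. The unstranded column was used here, since 49.8% to 50.2% of the reads of each library lay on the first strand. Clonotype files were not used.

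Groups came from the genotype labels. Of 55487 identifiers, 55141 were found in GENCODE M21. Counts were tested with edgeR 4.0.16 in R 4.3.3 (quasi-likelihood test without the legacy moderation, TMM, filterByExpr, Benjamini-Hochberg adjustment, threshold 0.01). CPM are TMM-scaled, means of log2 CPM use a prior count of 2, and the standard error is the size of the log2 fold change over the root of the F statistic. Alternatives were DESeq2 1.42.0 (the tool the study used), other scalings, filters and thresholds, a replicate block and each library left out. p-values measure the spread between 1 library per mouse, and reads without molecular identifiers are not independent molecules, so floors cover counting error only. The members, gene lists and tests were chosen with earlier results of these data known. Values in every library are given for members past the threshold, at either end of the fold changes or among the 5 highest per kilobase, and for others chosen after their values were seen to show each role. Scripts were tested on simulated data. Some items of the pathway lists are not reported here.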

Additional observations from a re-analysis of the deposited data

How the results depend on the processing

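Scaling by DESeq2's size factors or by total counts, no filter or another filter on low counts, the legacy moderation and, chosen after seeing the data, the sum of both strand columns gave 519 to 560 genes past the threshold (530 in the reported fit), 5 members that rose and a median log2 fold change of the members between 0.39 and 0.41. In these fits the median of all genes moved by less than 0.1. DESeq2 called 1027 genes and 11 members, and a threshold of 0.05 called 1173 genes and 11 members. Over the fits without 1 library, the genes past the threshold ranged from 110 to 1311, the members that rose from 1 to 24, those that fell from 0 to 1, the median log2 fold change of the members from 0.17 to 0.54, and the difference of the mean log2 CPM of the members from 0.27 to 0.57. The replicate numbers of the labels belong to different mice and are taken to pair nothing. Deviations from the group means of same-numbered libraries correlated at 0.015 (number 1) and 0.0045 (number 2) over all tested genes, and at 0.24 and -0.47 over the members. With a replicate block, in which WT replicate 3 has no partner, 358 genes and 3 members passed, with a median of 0.32. *Mx1*, *Apobec3*, *Oas1a* and *Ifi204* no longer passed, and *Ifit3* and *Irf7* did.

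Of the values for single members under alternatives, 617 kept their direction and side of the threshold, 35 passed where the reported fit did not, 15 no longer passed and 19 changed sign, all 19 in 8 members that had not passed. Over the fits without 1 library their log2 fold changes ran from -0.15 to 0.54 for *Oas3*, -0.10 to 0.0023 for *Ifi27*, -0.036 to 0.42 for *Parp14*, -0.22 to 0.21 for *Ddx58*, -0.049 to 0.18 for *Dhx58*, -0.0013 to 0.23 for *Zbp1*, -0.34 to 0.25 for *Slfn5* and -0.18 to 0.58 for *Trim25*. With the replicate block they were 0.0051 for *Ifi27*, -0.090 for *Ddx58*, -0.047 for *Dhx58* and -0.13 for *Slfn5*. *Slfn5*, at 0.0015 in the reported fit, was also at -0.0098 with DESeq2, -0.0028 with total counts, -0.021 with no filter, -0.0034 with the legacy moderation and -0.0060 with both strand columns. The cause of these changes was not tested.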
